A study of Mus musculus with 22 samples.

Results

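The 10 genes described here are immediate early genes of the mouse: Fos, Fosb, Fosl1, Jun, Junb, Egr1, Egr2, Ier2, Atf3 and Dusp1. They were chosen by gene symbol, and each was found by its Ensembl identifier in both assays of the series. They are 10 of the 20396 genes listed for both RNA-Seq and ribosome profiling (Ribo-Seq, which sequences the mRNA fragments covered by ribosomes). Each is described at 3 levels: mRNA, ribosome footprints, and translation efficiency (TE, the footprint level over the mRNA level).

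Immediate early genes are transcribed within minutes of a signal from proteins that are already in the cell, mainly serum response factor with its ternary complex partners and CREB, which kinases such as ERK activate. Their mRNAs are as a rule short-lived, partly through AU-rich elements in the 3′ UTR that recruit decay factors such as Zfp36. FOS and JUN proteins pair through leucine zippers to form the transcription factor AP-1, EGR proteins are zinc-finger factors, and DUSP1 is a phosphatase that switches the kinases off again. In neural stem cells (NSCs) kept in culture, EGF and bFGF in the medium feed the same ERK pathway.

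The series compared cultured cortical NSCs of mouse embryos in which the RNA-binding proteins Musashi-1 (Msi1) or Musashi-2 (Msi2) were switched on or deleted, to ask which mRNAs these proteins regulate. It held 22 libraries, 14 of RNA-Seq and 8 of Ribo-Seq. All lines were of the 129SvJae strain and grew in N2 medium with EGF and bFGF, so growth factor was present in every group, controls included.

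There were 5 lines. KH2 carried the reverse tetracycline transactivator m2rtTA in the Rosa26 locus (R26-m2rtTA) and no Musashi cDNA. The tetO-Msi1 and tetO-Msi2 lines carried R26-m2rtTA plus the respective cDNA under a tetracycline operator in the Col1a1 locus, so that doxycycline (Dox, 1 µg/ml for 72 h) turned the cDNA on. C1 and C4 carried floxed alleles of both Msi1 and Msi2 and were given 4-hydroxytamoxifen (4-OHT) for 48 h. C4 also had a tamoxifen-inducible CreER and C1 had no Cre, so that C1 with 4-OHT was the control for the drug. At E12.5 all 5 lines had RNA-Seq with and without their drug, and all but tetO-Msi2 also had Ribo-Seq in the same conditions. At E13.5 there was RNA-Seq only, of tetO-Msi1 with and without Dox and of untreated KH2. "Tet lines" below are KH2, tetO-Msi1 and tetO-Msi2, and "floxed lines" are C1 and C4.

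Every genotype was a single line with 1 library per condition, except that the untreated tetO-Msi1 sample of E13.5 had 2 technical libraries, which were counted as 1 sample. Tests therefore used lines or stages as repeats. Nothing in the labels ties the libraries to separate cultures, so p-values measure at most the spread between these samples. With so few samples, the tests took part of each gene's spread from all genes. In the test of Dox in tetO-Msi1 mRNA at both stages and in that of Dox in footprints, they took all of it from there. Level differences are given in bulk RNA, where fewer cells of a kind and less RNA per cell cannot be told apart.

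Counted reads ranged from 7889966 to 58435172 per RNA-Seq library and from 657288 to 6381242 per Ribo-Seq library. The transgenes and deletion showed in the mRNA: Msi1 stood at 19.7 RPKM without and 108 RPKM with Dox in tetO-Msi1 of E12.5, Msi2 at 23.2 and 128 RPKM in tetO-Msi2, and Msi2 at 39.5 and 4.54 RPKM in C4 without and with 4-OHT, while Msi1 in C4 stood at 9.46 and 9.42 RPKM. Of the 8 neural stem markers examined, 7 were in the RNA-Seq data, with a summed level of 2045 to 5629 RPKM. Markers of the oligodendrocyte lineage summed to 252 to 966 RPKM, astrocyte markers to 64.8 to 392 RPKM and neuron markers to 4.69 to 15.1 RPKM. Endothelial and meningeal fibroblast sums did not exceed 0.348 and 1.48 RPKM, and microglial and red blood cell sums did not exceed 0.0734 and 0.051 RPKM. Deposited RPKM values carried a shift between sets of libraries: over 11811 genes the median log2 difference of untreated C1 and C4 from untreated tet lines was 1.07, and it was -0.01 when CPM (counts scaled to the same total of counted reads) were used. Levels of mRNA are therefore given in CPM between stages and line types, and in RPKM (per length) between genes of a group and within a treated and untreated pair. Footprint levels are given mostly in RPKM, which carried a shift too. Over 8039 genes the median log2 difference in footprint RPKM of untreated C1 and C4 from untreated KH2 and tetO-Msi1 was 1.06. In the untreated KH2 Ribo-Seq library the 10 most abundant genes took 77.6% of the counted reads, against 5.97% to 35.9% in the other 7.

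A motif tied to mRNA decay is shown first, since immediate early mRNAs are as a rule short-lived. The counts are string matches, and decay was not measured. The pentamer AUUUA, the core of an AU-rich element, was counted for every gene in whichever of its annotated 3′ UTRs was longest (NCBIM37, written as DNA), and 9 of the 10 members held at least 1 copy, against 63.2% of 19381 genes. Fos and Dusp1 each held 4 copies, which is 4.91 and 5.80 per kb and the 92.6th and 95.1st percentile of all genes. Jun also held 4, Atf3 and Egr2 held 3 each, Junb and Egr1 2 each, Fosl1 and Fosb 1 each, and Ier2 held 0. The windows below, each 30 bases, carry the pentamers of the members with the most copies, with ATTTA in capitals. In the Fos and Dusp1 windows a pair of copies overlaps to give ATTTATTTA.
Fos, chr12:86818050-86818079, plus strand: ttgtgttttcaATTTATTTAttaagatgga
Dusp1, chr17:26643102-26643131, minus strand: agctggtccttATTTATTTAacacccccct
Jun, chr4:94715898-94715927, minus strand: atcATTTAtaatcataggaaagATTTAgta

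UAG, the core of the motif that MSI1 binds, was counted in the same 3′ UTRs, because Musashi proteins were what the study switched. It is a common triplet: 93.6% of all genes held at least 1, and the median gene held 11.1 per kb. Fos was the densest member with 19.6 per kb, the 95.5th percentile, from 16 copies in 815 nt. Fosl1 followed with 15.7 per kb, Jun with 12.98 and Ier2 with 11.9, and the other 6 members lay below the median of all genes. The windows with the closest spacing are printed for the 3 densest members, with TAG in capitals (NCBIM37).
Fos, chr12:86817666-86817695, plus strand: TAGtgacacctgagagctggTAGtTAGTAG
Fosl1, chr19:5455674-5455703, plus strand: TAGacagaaggtgccctttgacTAGccTAG
Jun, chr4:94716567-94716596, minus strand: caaTAGagactgTAGattgcttctgTAGtg

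Promoters were searched because these genes share inputs at their start sites. RefSeq promoter entries of equal length around start sites (GRCm38.p6, a later build than that of the files) held 11 entries for 7 members, namely Fos, Fosb, Jun, Junb, Egr2 (5 entries), Atf3 and Dusp1. Entries for Fosl1, Ier2 and the remaining zinc-finger gene were not used here. The CArG box, bound by serum response factor, was in 4 of the 5 Egr2 entries and in no other member's entry, against 1.63% of 32851 entries. The Egr2 entries overlap, and 3 of these 4 hold the same box, so that the boxes are 2 distinct sites. TGACG, the core of a CREB or ATF site, was in at least 1 entry of 6 of the 7 members, all but Jun, against 20.8% of entries, and TGANTCA, the AP-1 site, was in none against 7.81%. A match is a string of letters in these windows and not a measured binding site. The entries are short: that of Fos spans chr12:85473640-85473939. Sequence outside them was not searched, so a member without a match here may have one farther out. The windows below show CArG boxes of Egr2 and the TGACG, or CGTCA where it lies on the other strand, of 5 members in capitals.
Egr2, chr10:67537787-67537816, plus strand: gttcctcagtCCATATATGGgcagcgacgt
Egr2, chr10:67537484-67537513, plus strand: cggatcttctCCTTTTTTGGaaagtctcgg
Fos, chr12:85473812-85473841, plus strand: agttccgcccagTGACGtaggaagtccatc
Fosb, chr7:19310088-19310117, minus strand: tggagttgcgggTGACGcaagcgcgggggc
Junb, chr8:84978837-84978866, minus strand: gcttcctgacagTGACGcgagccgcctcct
Atf3, chr1:191183323-191183352, minus strand: ttaatagcattaCGTCAgcctgggattggt
Dusp1, chr17:26508646-26508675, minus strand: ctcctaggccgaTGACGtctttgcttttgg

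Within each group of libraries the members spanned more than 2 orders of magnitude in mRNA per length, and Jun and Egr1 headed every group. Over the 6 conditions of tet lines at E12.5 the median level was 53.3 RPKM for Jun, 25.8 RPKM for Egr1, 23.9 RPKM for Fos, 8.60 RPKM for Ier2, 3.64 RPKM for Junb and 2.99 RPKM for Dusp1. Atf3, Fosb, Fosl1 and Egr2 closed the order with medians of 0.698, 0.552, 0.278 and 0.209 RPKM. Neighbours in this order overlapped in their values except for Jun and Egr1, Dusp1 and Atf3, and Fosb and Fosl1. Over the 3 conditions of E13.5 Egr1 led with a median of 47.9 RPKM, ahead of Jun with 36.1, Ier2 with 12.9 and Fos with 10.7 RPKM. Over the 4 conditions of C1 and C4 the order was Egr1 (157 RPKM), Jun (123), Ier2 (33.8), Fosl1 (22.5), Fos (16.9), Junb (14.3), Dusp1 (5.54), Egr2 (4.47), Atf3 (0.768) and Fosb (0.316). Fosl1 thus stood among the 3 lowest members in every group of tet lines and 4th in the floxed lines. Among all genes with more than 5 reads, Jun lay between the 82.3rd and 96.9th percentile of mRNA level over the 13 conditions, Egr1 between the 76.9th and 98.2nd, Fos between the 48.2nd and 94.1st, and Atf3 between the 10.1st and 31.2nd.

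**Figure D1:**
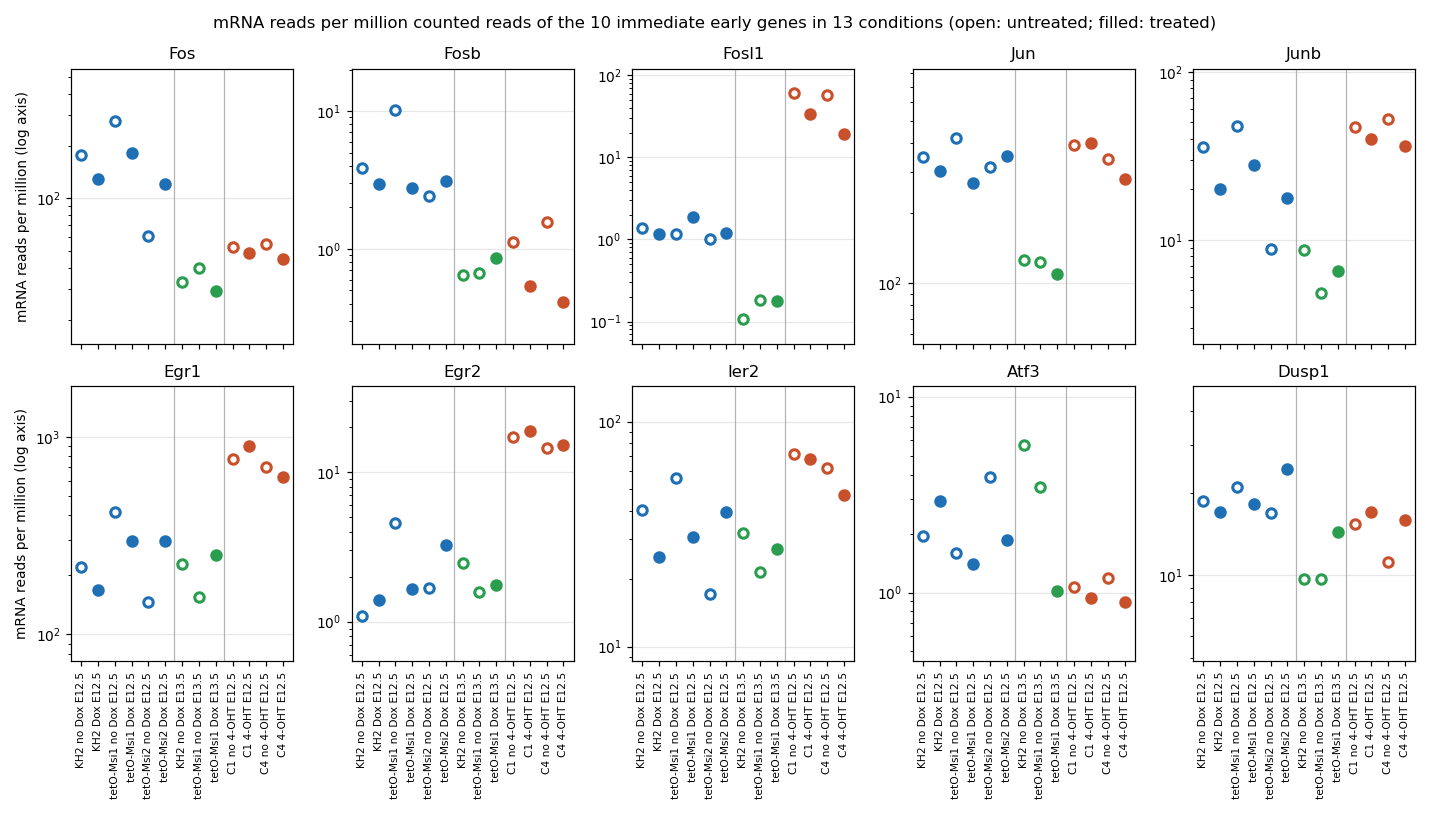
mRNA level of the 10 immediate early genes in each of the 13 RNA-Seq conditions, in CPM on a log axis, with 1 panel per gene and 1 point per condition (1 library each, the technical pair summed). Open points are untreated and filled points treated; blue marks tet lines at E12.5, green tet lines at E13.5 and red the floxed lines. Fosl1 sits between 0.107 and 1.90 CPM in the tet lines and between 19.5 and 60.6 CPM in C1 and C4, whereas Dusp1 stays between 9.69 and 24.6 CPM throughout.

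Untreated cells of E13.5 were compared with untreated cells of E12.5 in KH2 and tetO-Msi1, with the line as a block. Most members were lower at E13.5 and Atf3 was higher, but 50.8% of 11893 genes passed the same test (25.6% higher, 25.2% lower), and the stages lay in sets of libraries that also differed otherwise: the counted share of the reads that the RPKM values imply was 14.9% to 15.8% in tet lines of E12.5 and 28.2% to 34.1% in all other RNA-Seq libraries. The labels name no batch, but whatever separates these sets cannot be told apart from stage. By edgeR's quasi-likelihood test with Benjamini-Hochberg adjustment, 9 of the 10 members passed, 8 lower and 1 higher. Fosb and Fosl1 are among the 8, though the filter on low counts fixed their direction. The median log2 change of the members was -1.33, beside 0.01 over all genes tested.

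Among the AP-1 genes, Fos (ENSMUSG00000021250, chr12:86814840-86818223, plus strand, NCBIM37 as for all members) encodes the c-FOS subunit and stood at 178 CPM in KH2 and 278 CPM in tetO-Msi1 at E12.5, and at 32.9 and 39.7 CPM at E13.5. The stages did not overlap in either line, and Fos fell by 2.63 on the log2 scale (SE 0.13, adjusted p = 1.44e-07). Fosb (ENSMUSG00000003545, chr7:19888070-19895394, minus strand), which encodes a second FOS protein, stood at 3.88 and 10.2 CPM and then 0.643 and 0.674 CPM, and fell by 3.38 (SE 0.38, adjusted p = 5.68e-05). Fosl1 (ENSMUSG00000024912, chr19:5447703-5455945, plus strand) encodes FRA1 and stood at 1.40 and 1.16 CPM and then 0.107 and 0.181 CPM, the last of these from 3 and 11 reads, and it fell by 2.999 (SE 0.58, adjusted p = 0.00167). Fosb and Fosl1 passed the filter of 1 CPM in 2 libraries only through the E12.5 libraries, so their direction was fixed by the filter and adds nothing to the count.

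The JUN genes moved the same way. Jun (ENSMUSG00000052684, chr4:94715725-94718913, minus strand), whose product c-JUN can also pair with itself, stood at 349.7 CPM in KH2 and 420.04 CPM in tetO-Msi1 at E12.5 and at 126 and 124 CPM at E13.5. It fell by 1.62 (SE 0.11, adjusted p = 1.86e-06). Junb (ENSMUSG00000052837, chr8:87500811-87502617, minus strand) stood at 35.5 and 47.8 CPM and then 8.76 and 4.82 CPM, and fell by 2.68 (SE 0.26, adjusted p = 1.74e-05). For Jun and Junb, as for Fos, every E12.5 value was above every E13.5 value.

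The zinc-finger genes gave unlike values in the KH2 and tetO-Msi1 pairs, a difference that was not tested. Egr1 (ENSMUSG00000038418) encodes the factor also known as ZIF268 and stood at 221 CPM in KH2 and 417 CPM in tetO-Msi1 at E12.5, and at 228 and 154 CPM at E13.5. The stages overlapped, since KH2 was at about the same level at both. The edgeR fit gave a fall of Egr1 (log2 -0.70, SE 0.26, adjusted p = 0.0434), but the change was 0.03 from the KH2 pair alone and -1.42 from the tetO-Msi1 pair alone. Egr2 (ENSMUSG00000037868, chr10:66998223-67004936, plus strand), a factor known from hindbrain and myelinating cells, stood at 1.09 and 4.60 CPM at E12.5 and at 2.47 and 1.58 CPM at E13.5, with a log2 change of -0.46 (SE 0.53, adjusted p = 0.499). The lines went opposite ways, with log2 differences of 1.18 in KH2 and -1.48 in tetO-Msi1 after centring on all genes. Each is 1 sample against 1, from 14 and 69 reads in KH2 and 95 and 96 in tetO-Msi1. Neither measures the spread between cultures.

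Ier2 (ENSMUSG00000053560, chr8:87185230-87186751, minus strand), a short nuclear protein of the serum response, stood at 40.3 and 56.1 CPM at E12.5 and at 32.0 and 21.5 CPM at E13.5, and fell by 0.87 (SE 0.20, adjusted p = 0.0049). It lost the call when only the KH2 pair was left (log2 -0.35). Dusp1 (ENSMUSG00000024190, chr17:26642535-26645464, minus strand), the phosphatase of the group, stood at 18.8 and 21.0 CPM and then at 9.69 CPM in both lines, and fell by 1.04 (SE 0.17, adjusted p = 0.000575). Its stages did not overlap. Atf3 (ENSMUSG00000026628, chr1:192994175-193007219, minus strand), which encodes a factor of both the immediate early response and the integrated stress response, was the only member higher at E13.5, at 5.65 and 3.44 CPM against 1.94 and 1.60 CPM. It rose by 1.31 (SE 0.31, adjusted p = 0.00511), and without either line it kept its direction and its call.

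Atf3 did not stand alone in this direction among genes of the integrated stress response, the programme that ATF4 drives. Of 10 such genes tested, 8 rose and 1 fell at E13.5, beside 25.6% and 25.2% of all genes. Their median log2 change was 2.53 (Trib3 7.21, Chac1 6.18 and Nupr1 4.84, against Ddit4 at -2.01). The list was chosen with earlier results of these data known, so the count is no independent support. Of 4 astrocyte markers 2 rose and 1 fell at E13.5 in the same test (median log2 change 0.52), and of 5 markers of the oligodendrocyte lineage 1 rose and 1 fell (median 0.02). Of 7 neural stem markers 2 rose and 3 fell (median -0.02), and of 4 neuron markers 0 passed. The part of these markers in the members' differences was not tested.

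The untreated floxed lines, C1 and C4, were compared with the untreated tet lines, KH2, tetO-Msi1 and tetO-Msi2, all of E12.5. The clearest difference was Fosl1, nearly absent from the tet lines and among the stronger members in both floxed lines. Here too the sets of libraries differed in the counted share, which cannot be told apart from line type, and 66.3% of 12211 genes passed the test (33.0% higher, 33.3% lower). Of the 10 members 6 passed, 3 higher and 3 lower in the floxed lines. Of 4 astrocyte markers 3 were higher in the floxed lines (median log2 difference 2.39 in mRNA and 2.59 in footprints). Of 5 markers of the oligodendrocyte lineage 1 was higher and 1 lower in mRNA, and 3 were lower in footprints (median -1.65). Of 7 neural stem markers 1 was higher and 2 lower in mRNA, and of 8 in footprints 4 were higher and 3 lower. In footprints 16.1% of all genes were higher and 15.5% lower. Of 4 neuron markers 1 was higher and 1 lower in mRNA, and of 3 in footprints 1 was higher. The part of these markers in the members' differences was not tested. Its KH2 and tetO-Msi1 values also served in the comparison of stages.

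Fosl1 stood at 60.6 CPM in C1 and 58.3 CPM in C4, from 3455 and 2665 reads, and at 1.40, 1.16 and 1.02 CPM in KH2, tetO-Msi1 and tetO-Msi2, from 18, 24 and 14 reads. It rose by 5.64 on the log2 scale (SE 0.14, adjusted p = 6.49e-06). On the opposite strand the 3′ UTR of Ccdc85b lies over 522 of the 819 coding nt that the annotation gives Fosl1, and whether the authors' counting used strand is not given in the sources used here, so reads of the 2 genes cannot be told apart. In footprints, where Ccdc85b had values of its own, it stood at 20.1 RPKM in C1 and 5.70 RPKM in C4 against 1.52 and 2.05 RPKM in untreated KH2 and tetO-Msi1. Footprint RPKM differed between these line types by a median log2 of 1.06 over 8039 genes. The part of Ccdc85b in the Fosl1 values was not tested.

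The Egr genes were also higher in the floxed lines. Egr1 stood at 769.5 and 707 CPM in C1 and C4 against 221, 417 and 146 CPM in the tet lines, and rose by 1.503 (SE 0.38, adjusted p = 0.0124). Egr2 stood at 17.1 and 14.6 CPM against 1.09, 4.60 and 1.68 CPM, and rose by 2.62 (SE 0.49, adjusted p = 0.00345). The groups did not overlap for either gene. Without KH2 the adjusted p of Egr1 was 0.0522.

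Fos, Fosb and Dusp1 went the other way. Fos stood at 52.8 and 54.3 CPM in C1 and C4 and at 178, 278 and 60.5 CPM in the tet lines, a difference of -1.68 (SE 0.56, adjusted p = 0.0351). The tetO-Msi2 library lay close to the floxed lines, and the call was lost without any of the other 4 libraries (adjusted p of 0.0859 to 0.138) and kept without tetO-Msi2 (log2 -2.09, adjusted p = 0.000133). Fosb stood at 1.12 and 1.57 CPM against 3.88, 10.2 and 2.41 CPM (log2 -2.04, SE 0.62, adjusted p = 0.0247), and Dusp1 at 15.4 and 11.2 CPM against 18.8, 21.0 and 16.98 CPM (log2 -0.51, SE 0.18, adjusted p = 0.0393). Both were below every tet line, but Fosb lost the call without C1 or C4, and Dusp1 lost it without C4, KH2 or tetO-Msi1. Jun was level between line types, at 392 and 341 CPM against 349.7, 420.04 and 315 CPM (log2 0.02, adjusted p = 0.901). Junb (0.69), Ier2 (0.82) and Atf3 (-1.12) did not pass, with adjusted p of 0.311, 0.12 and 0.0628 by edgeR's quasi-likelihood test. Ier2 was called without tetO-Msi1 (log2 1.21, adjusted p = 0.0421) and without tetO-Msi2 (0.47, adjusted p = 0.0327), and Atf3 was called without tetO-Msi1 (-1.39, adjusted p = 0.0376).

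**Figure D2:**
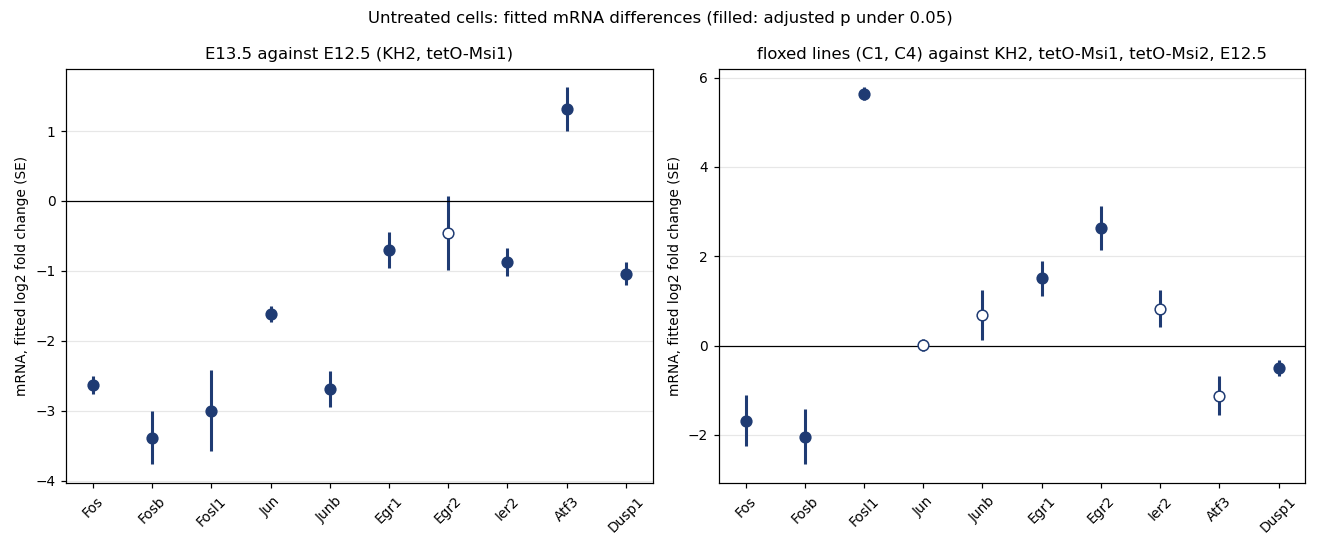
Fitted log2 difference in mRNA of each member, with its SE as bars, for untreated E13.5 against E12.5 and for untreated floxed against tet lines at E12.5 (filled points have an adjusted p under 0.05). Fosl1 lies at -2.999 in the first comparison and 5.64 in the second, while Fos and Fosb lie below 0 in both.

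Dox was given to 3 lines at E12.5, of which KH2 has no transgene. The single pairs split by line: Fos, Junb, Egr1 and Ier2 were lower with Dox in KH2 and in tetO-Msi1, and higher with Dox in tetO-Msi2. Of the 10 members 0 passed the test over the 3 lines, in which 0.451% of 11969 genes passed (edgeR's quasi-likelihood test, with 0 members at an unadjusted p under 0.05, and 0 of 6 given an adjusted p by DESeq2). Without tetO-Msi2, 4 members were called lower by edgeR: Fos at -0.53 (adjusted p = 0.00994), Junb at -0.79 (0.00285), Egr1 at -0.44 (0.0421) and Ier2 at -0.77 (0.00285).

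Fos stood at 28.2 RPKM without and 20.3 RPKM with Dox in KH2, at 42.6 and 27.5 RPKM in tetO-Msi1, and at 9.44 and 19.5 RPKM in tetO-Msi2. The log2 differences were -0.47 (95% interval -0.55 to -0.40), -0.63 (-0.71 to -0.55) and 1.04 (0.93 to 1.16). These intervals, like all intervals given here, cover counting error only and not the difference between cultures. Without Dox tetO-Msi2 was the lowest line by far, and with Dox the 3 lines lay between 19.5 and 27.5 RPKM.

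Egr1 followed the same pattern, at 22.6 and 16.8 RPKM in KH2, 41.2 and 29.0 RPKM in tetO-Msi1, and 14.7 and 30.6 RPKM in tetO-Msi2. Ier2 stood at 10.04 and 6.13 RPKM in KH2, 13.48 and 7.28 RPKM in tetO-Msi1, and 4.21 and 9.93 RPKM in tetO-Msi2. Junb stood at 5.56 and 3.12 RPKM, 7.22 and 4.16 RPKM, and 1.36 and 2.80 RPKM in the same order. For each of these 3 genes, too, the untreated tetO-Msi2 library was the lowest of the untreated lines. In tetO-Msi2 the log2 differences were 1.06 for Egr1 (95% interval 0.98 to 1.13), 1.24 for Ier2 (1.02 to 1.45) and 1.04 for Junb (0.73 to 1.34), and in KH2 they were -0.42, -0.71 and -0.83.

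Jun differed less, at -0.22 in KH2 (95% interval -0.27 to -0.16), -0.66 in tetO-Msi1 (-0.73 to -0.59) and 0.20 in tetO-Msi2 (0.14 to 0.25). Dusp1 was higher with Dox in tetO-Msi2, at 2.76 and 4.10 RPKM (0.57, 95% interval 0.34 to 0.80), beside -0.16 and -0.22 in KH2 and tetO-Msi1. Atf3 went against the rest in tetO-Msi2, at 1.40 RPKM without and 0.686 RPKM with Dox (-1.03, 95% interval -1.67 to -0.39). Fosb and Egr2 were below 2 RPKM in every tet library, and their largest single differences were in tetO-Msi1, at -1.88 (95% interval -2.52 to -1.25) and -1.50 (-2.33 to -0.66).

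**Figure D3:**
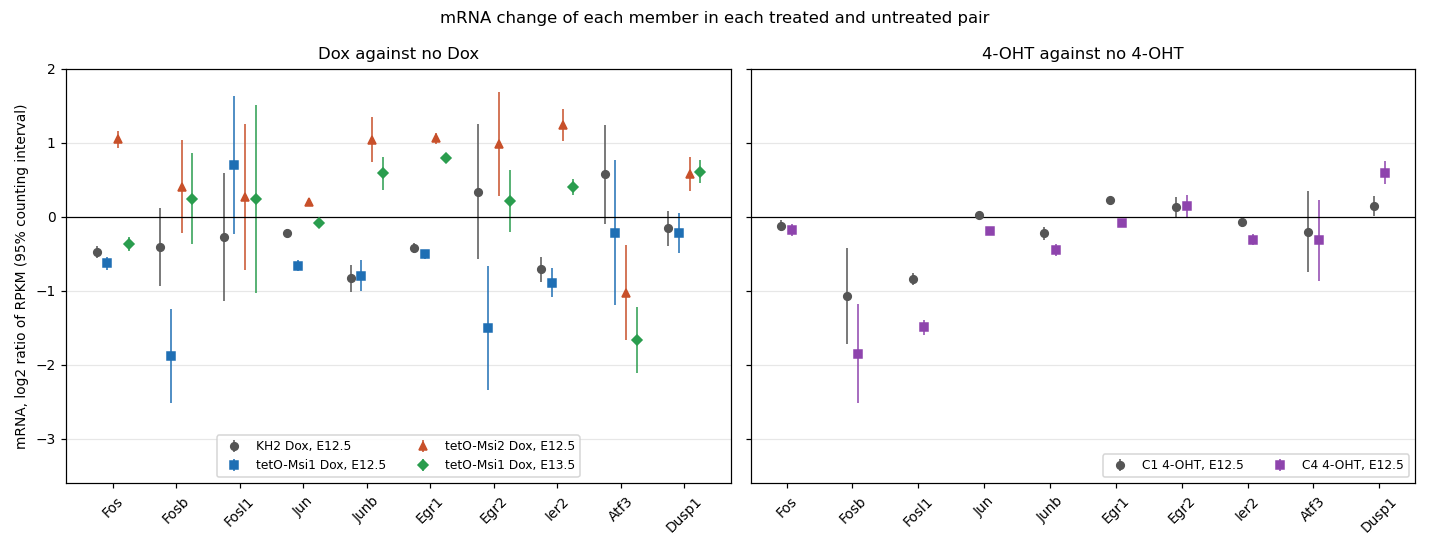
Log2 ratio of deposited mRNA RPKM, treated over untreated, of each member in each of the 6 treated and untreated pairs of libraries, with 95% counting intervals as bars. Fos, Junb, Egr1 and Ier2 lie below 0 for Dox in KH2 and tetO-Msi1 at E12.5 and between 1.04 and 1.24 in tetO-Msi2.

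The tetO-Msi1 line was treated at both stages, and with the stages as repeats 2 of the 10 members fell with Dox, Fos and Atf3, against 3.60% of 11938 genes called in either direction and 1.82% lower. Fos stood at 42.6 and 27.5 RPKM without and with Dox at E12.5 and at 11.5 and 8.90 RPKM at E13.5, and fell by 0.54 (SE 0.16, adjusted p = 0.022). Atf3 stood at 0.564 and 0.486 RPKM at E12.5 and at 2.26 and 0.712 RPKM at E13.5, and fell by 1.30 (SE 0.38, adjusted p = 0.0254). For Atf3 the difference came almost wholly from E13.5, where the pair differed by -1.66 (95% interval -2.11 to -1.22) and at E12.5 by -0.21. This test took its spread from all genes, so the spread between the 2 Atf3 pairs was not what its p-value measured. Both members were lower in 2 of 2 pairs, but neither was called by DESeq2, which gave Fos an adjusted p of 0.0881. In fits that kept a single pair, Fos lost its call with either pair and Atf3 kept it with the E13.5 pair only. Those fits took their spread from other libraries. With technical library 1 alone as the untreated E13.5 sample, Atf3 lost its call (adjusted p = 0.0857) and Fosb gained one (log2 -1.15, adjusted p = 0.039).

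Other members turned direction between the stages in this line. Egr1 was lower with Dox at E12.5 (-0.51) and higher at E13.5 (28.6 and 49.7 RPKM, a difference of 0.80, 95% interval 0.76 to 0.84). Junb was 0.58 higher at E13.5 (95% interval 0.36 to 0.81) and Ier2 0.40 higher (0.29 to 0.51), where both had been lower at E12.5. Dusp1 was 0.61 higher at E13.5 (95% interval 0.45 to 0.77), at 2.998 and 4.57 RPKM. The KH2 control with Dox is not part of the E13.5 set, so that Dox and the transgene cannot be told apart there.

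4-OHT was given to C1, which has no Cre, and to C4, in which Msi2 mRNA was lower with the drug. Fosl1 and Fosb fell with 4-OHT in both lines, the line without Cre included. They were the 2 of 10 members that passed the test over both lines, against 5.50% of 11626 genes in either direction and 2.36% lower. The direction of Fosb was fixed by the filter on low counts, so Fosb adds nothing to this count.

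Fosl1 stood at 29.96 RPKM without and 16.7 RPKM with 4-OHT in C1, and at 28.3 and 10.04 RPKM in C4. The treated values were below the untreated ones in both lines, and Fosl1 fell by 1.20 (SE 0.15, adjusted p = 0.00561). The single differences were -0.84 (95% interval -0.93 to -0.76) in C1 and -1.49 (-1.59 to -1.39) in C4. In fits that kept a single pair the call held for C4 and was lost for C1. Such fits took their spread from other lines and treatments, so neither outcome decides whether that line changed.

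Fosb stood at 0.429 and 0.204 RPKM in C1 and at 0.590 and 0.164 RPKM in C4, from 64 and 27 reads and from 72 and 24 reads. It fell by 1.49 (SE 0.36, adjusted p = 0.0494) and passed the filter on low counts only through the untreated libraries, so that its direction is no support. Junb came close, at 15.4 and 13.2 RPKM in C1 and 16.9 and 12.4 RPKM in C4 (log2 -0.37, SE 0.09, adjusted p = 0.0542). The other AP-1 members were near level, Fos with -0.19 and Jun with -0.12.

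The remaining members did not pass. Egr1 stood at 165 and 193 RPKM in C1 and at 149 and 141 RPKM in C4, a difference of 0.23 (95% interval 0.21 to 0.24) in the line without Cre and -0.08 (-0.11 to -0.06) in C4. Dusp1 was higher in C4, at 3.82 and 5.75 RPKM (0.59, 95% interval 0.43 to 0.75), than the difference of 0.14 in C1, and its adjusted p over both lines was 0.194. Over both lines the fitted log2 difference was -0.23 for Ier2, 0.10 for Egr2 and -0.29 for Atf3. Atf3 passed the filter on low counts only through the untreated libraries, so the filter fixed its direction too.

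Footprints of the members were few, and their order in the 4 tet libraries was Jun (median 12.2 RPKM), Fos (5.13), Egr1 (4.66), Ier2 (1.60), Dusp1 (1.13), Junb (0.472) and Fosb (0.176), with Atf3, Egr2 and Fosl1 under 0.1 RPKM. Of the 8 members that passed the filter on low counts, 3 differed between untreated floxed and tet lines, against 31.7% of 12097 genes (16.1% higher, 15.5% lower). Fosl1 had 210 footprint reads in C1 and 78 in C4, and 0 in KH2 and 1 in tetO-Msi1. Scaled to the reads that the RPKM values imply, that is a ratio of 238 (exact 95% interval 42.4 to 9430). That scale carries the shift between line types, a median log2 difference of 1.06 over 8039 genes. The shift was not taken out of the ratio or its interval. By edgeR's quasi-likelihood test the fitted log2 difference was 6.46 (SE 0.74, adjusted p = 9.2e-05). Fosl1 passed the filter only through the floxed libraries, however, and was not tested without C1 or without C4.

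Egr1 footprints stood at 43.4 RPKM in C1 and 14.05 RPKM in C4 against 4.67 and 5.82 RPKM in KH2 and tetO-Msi1, and rose by 1.10 in the fit to TMM-scaled counts (SE 0.22, adjusted p = 0.00346). The RPKM values include the shift between line types, a median log2 difference of 1.06 over 8039 genes. Fos footprints stood at 6.85 and 2.65 RPKM against 5.33 and 7.63 RPKM, and fell by 1.75 in that fit (SE 0.29, adjusted p = 0.000948). For Fos the groups overlapped in RPKM, and also in CPM, at 27.4 and 40.2 CPM in C1 and C4 against 19.0 CPM in KH2 and 81.0 CPM in tetO-Msi1. Without the KH2 library, in which a few genes took most reads, Fos was called at -1.95 (adjusted p = 0.000337). Egr2 had 80 reads in the floxed and 6 in the tet libraries, a ratio of 11.02 on the same scale (exact 95% interval 4.84 to 30.9). The shift between line types was not taken out of this ratio or its interval. Egr2 did not pass by edgeR's quasi-likelihood test (adjusted p = 0.0628). The listed coding exons of Egr2 overlap, and all its footprint counts were even. If reads there were counted more than once, this interval is too narrow, which was not tested.

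With 4-OHT, 0 of 8 members changed in footprints by edgeR's quasi-likelihood test, against 0.934% of 12426 genes (2 members at an unadjusted p under 0.05, and 0 of the 2 with an adjusted p by DESeq2). Fosl1 reads went from 210 to 57 in C1 and from 78 to 11 in C4, with a log2 change of -1.19 (SE 0.42, adjusted p = 0.375). Egr2 reads went from 58 to 12 in C1 and from 22 to 2 in C4 (log2 -1.57, SE 0.75, adjusted p = 0.653). In the C1 pair the median footprint RPKM of all genes was itself lower by 1.44 on the log2 scale with 4-OHT, and relative to that median Fosl1 differed by -0.31 and Egr2 by -0.70 in C1, and by -2.55 and -3.18 relative to the median of C4.

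With Dox, 0 of 8 members changed in footprints over KH2 and tetO-Msi1, against 0.633% of 11526 genes (1 member, Fos, at an unadjusted p under 0.05 by edgeR, and 0 of 10 by DESeq2). Fos footprints stood at 5.33 and 4.93 RPKM without and with Dox in KH2 and at 7.63 and 4.49 RPKM in tetO-Msi1, and the fitted log2 difference was -0.51 (SE 0.24). In the tetO-Msi1 pair Fos differed by -0.76 (95% interval -1.23 to -0.30), Jun by -0.58 (-0.92 to -0.24) and Egr1 by -0.70 (-1.15 to -0.26).

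TE was compared as the footprint change beyond the mRNA change in a model over both assays. For 4-OHT 0 of 10 members passed and 0% of 12298 genes did (edgeR's quasi-likelihood test). At an unadjusted p under 0.05 there were 1036 genes, among them 1 member, Egr2 (log2 -1.49, SE 0.57, adjusted p = 0.58), and DESeq2 called 49 genes and 0 of 8 members. For Dox 0 of 10 members passed against 0.132% of 12080 genes, and between untreated floxed and tet lines 0 of 10 passed against 6.33% of 12451 genes. In both of these tests 0 members had an unadjusted p under 0.05 by edgeR and 0 of 10 were called by DESeq2. The filter counted libraries of both assays, so mRNA alone could carry a member through. Atf3 had at most 4 footprint reads and Fosb at most 9 in any library. In the tet libraries Fosl1 had at most 1 and Egr2 at most 6. For these members the TE tests say little.

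The limits by which the study called translational targets, a TE difference of at least 3-fold with an mRNA difference under 1.5-fold and more than 5 reads, were also applied to each pair. Of the members with enough reads, 0 of 5 met them in KH2 (1.10% of all genes), 0 of 4 in tetO-Msi1 (1.29%), 1 of 8 in C1 (38.5%) and 0 of 7 in C4 (2.60%). The member in C1 was Egr2, and the high share of all genes there goes with the median TE difference of -1.46 in that pair.

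As levels, the TE of several members lay low among all genes. Junb was between 0.0624 and 0.202 in the 6 conditions with enough reads, the 2.89th to 23.3rd percentile, and Egr2 between 0.0466 and 0.225 in 4 conditions, the 2.95th to 22.3rd percentile. For Egr2 the listed coding exons sum to 2483 nt while they cover 1244 nt, and all its footprint counts were even. A read may thus have been counted more than once, and the effect on its footprint RPKM and TE was not tested. Egr1 ranged from 0.0905 to 0.276 (5.86th to 43.8th percentile), Fos from 0.137 to 0.390 (12.8th to 54.0th) and Jun from 0.145 to 0.522 (30.7th to 57.9th). Ier2 ranged from 0.127 to 0.436 in 7 conditions (10.8th to 61.7th). Dusp1 reached the highest percentile of the members, with values from 0.0982 to 0.509 (32.5th to 82.5th percentile). Fosl1 had enough reads in the 4 floxed conditions only, from 0.0594 to 0.382 (12.7th to 47.1st percentile), Fosb in a single condition at 0.177, and Atf3 in none. Since TE divides 2 deposited RPKM values, the median of all genes itself ranged from 0.130 to 0.572 between conditions, and percentiles compare a member with other genes of the same condition only.

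**Figure D4:**
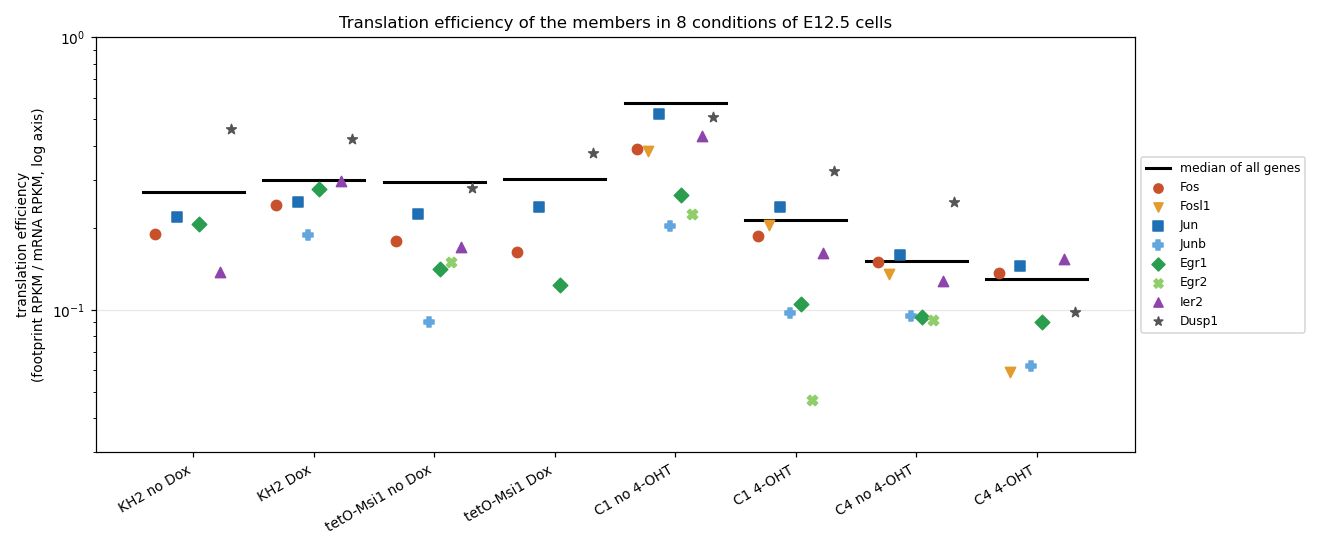
Translation efficiency (footprint RPKM over mRNA RPKM, log axis) of 8 members in the 8 conditions with both assays, shown where both libraries had more than 5 reads. Black lines are the median of all genes. Junb and Egr2 lie below the median of all genes in each condition where they are shown.

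Other genes of the same pathways were taken from fixed lists, which were chosen with earlier results of these data known. At E13.5 against E12.5, of 28 other immediate early genes 5 rose and 12 fell (median log2 change -0.33), beside 25.6% and 25.2% of all genes, with Maff, a small MAF factor, at -2.84 and the FOS relative Fosl2 at -1.70, and with the prostaglandin enzyme gene Ptgs2 at 2.28 and Myc at 1.46. ERK feedback genes went mainly the other way, with 6 of 11 higher and 1 lower: Dusp6, the ERK phosphatase, at 2.32, Spry4 at 1.55 and Etv5 at 1.09, against Dusp5 at -0.72. Against the same shares of all genes, 3 of 16 upstream factors and kinases rose, Map2k2 most at 0.75, and 6 fell, among them the ERK1 gene Mapk3 at -1.33 and the MEK1 gene Map2k1 at -0.87. Of 8 genes for proteins that bind AU-rich elements 4 rose, among them Khsrp at 1.26, and 2 fell, Zfp36 at -1.62 and Zfp36l1 at -0.95.

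Between untreated floxed and tet lines, 17 of 30 other immediate early genes were higher and 9 lower in the floxed lines (median 1.63), beside 33.0% and 33.3% of all genes, led by Egr3 at 4.16, Egr4 at 4.16 and Klf2 at 4.13, with the antiproliferative gene Btg2 at -3.84 and Jund at -2.11. Of 11 ERK feedback genes 8 were higher and 1 lower (median 1.42), with Dusp6 at 3.44, Dusp5 at 2.89 and Spry4 at 2.74. In footprints 10 of 31 other immediate early genes were higher and 6 lower, beside 16.1% and 15.5% of all genes, and 7 of 12 ERK feedback genes were higher and 0 lower. Of 8 genes of the integrated stress response 1 was higher and 3 were lower in mRNA, with Ddit4 at -4.53.

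Fewer of these genes, as of all genes, passed in the mRNA tests of treatments than between stages or line types. With 4-OHT, 4 of 30 other immediate early genes fell and 0 rose, beside 2.36% of all genes lower. Klf2 stood at -1.49, Npas4 at -1.14 and the matricellular gene Cyr61 at -1.04. Of 11 ERK feedback genes Dusp6 (0.47) and Spry4 (0.31) rose, beside 5.50% of all genes called in either direction. With Dox in tetO-Msi1 at both stages, Klf4 (-0.79) was the only 1 of 27 called, beside 1.82% of all genes lower. Of 10 integrated stress response genes Atf5 rose (0.83) while Trib3 (-1.16) and Chac1 (-0.83) fell beside Atf3, against 3.60% of all genes. Over the 3 Dox lines at E12.5, 0 of 27 other immediate early genes passed. There Nupr1 (1.40) and Atf5 (1.08) rose, beside 0.451% of all genes called.

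For Fos, Egr1 and Atf3 the genes with the most similar mRNA pattern were ranked by Pearson's r of log2(RPKM + 0.5) over the 13 conditions, among 10849 genes with a mean of at least 1 RPKM. This is a description, since the conditions share lines, sets of libraries and the RPKM shift between them. The nearest to Fos were Gal3st4 (r = 0.897), Mr1 (0.873), Zfp868 (0.842), Tifa (0.841) and C130071C03Rik (0.809). Within the 6 conditions of tet lines at E12.5 the r of Gal3st4 with Fos was 0.924. The nearest to Egr1 were ENSMUSG00000073707 (0.972), Pqlc1 (0.971), Dusp15 (0.968), Nt5dc3 (0.967) and 2700023E23Rik (0.966), and for Pqlc1 the r within those 6 conditions was 0.699. The nearest to Atf3 were Mrpl45 (0.949), Rpl14 (0.940), Stc2 (0.894), ENSMUSG00000003426 (0.878) and Necap2 (0.876), where the rank correlation of Mrpl45 was only 0.489. Of the 5 genes named for each, 5, 3 and 5 were also named with a pseudocount of 0.1, and 2, 1 and 5 with a minimum mean of 5 RPKM.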

How the data were processed

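Reads were aligned by the authors to the mouse genome (mm9, NCBIM37), and their processing notes name Bowtie and TopHat without versions. Strand handling and read filters are not given in the sources used here. The deposited tables gave read counts per Ensembl gene, over coding exons trimmed by 40 nt per exon in RNA-Seq and over whole listed coding exons in Ribo-Seq. The authors' RPKM stood beside the counts.

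Counts were tested as deposited with edgeR 4.0.16 (R 4.3.3; TMM, glmQLFit and glmQLFTest), for genes with at least 1 CPM in at least 2 libraries, with Benjamini-Hochberg adjustment over all genes tested and a threshold of 0.05. Lines or stages were the block in the treatment and stage tests, and TE was the interaction of assay with treatment or line type. Counts of the 2 technical libraries were summed and their RPKM averaged. Single pairs were compared as log2 ratios of RPKM with 95% intervals from the counts (delta method). The scripts were tested on simulated counts. Alternatives were RLE size factors, no filter, DESeq2 1.42.0, no block, leaving out lines or stages, either technical library alone, centring on all genes, another pseudocount, and a treated control line.

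All 10 members are named, with up to 3 genes in each direction per list and test, those with the largest change, and 5 genes per likeness ranking. Members and lists were chosen with earlier results of these data known. Sequences came from NCBIM37 with gencode vM1 and, for promoters, from RefSeq. Proteins were not compared here.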

Additional observations from a re-analysis of the deposited data

Results flagged for a closer look

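Several members had opposite signs under the same contrast in 2 groups, with counting intervals on opposite sides of 0. Each group is 1 pair of libraries, so these differences between groups were not tested. With Dox at E12.5, mRNA was higher in tetO-Msi2 and lowest in tetO-Msi1 or, for Junb, in KH2: the gap between the log2 ratios was 1.67 for Fos, 0.86 for Jun, 1.87 for Junb, 1.57 for Egr1, 2.48 for Egr2 and 2.13 for Ier2. These 6 genes share the untreated tetO-Msi2 library.

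With Dox in tetO-Msi1, mRNA was lower at E12.5 and higher at E13.5, with gaps of 1.38 for Junb, 1.31 for Egr1 and 1.29 for Ier2. Between stages in untreated cells, centred on all genes, Egr2 was higher at E13.5 in KH2 and lower in tetO-Msi1, a gap of 2.66. With 4-OHT, Egr1 was higher in C1 and lower in C4, a gap of 0.31.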

How the results depend on the processing

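Under RLE size factors, no filter on low counts and DESeq2, member counts moved as follows. For Dox in tetO-Msi1 the 2 calls became 0 with DESeq2. For 4-OHT the 2 calls became 1 with RLE size factors, 1 with DESeq2 and 3 without the filter. For stage the 9 became 8 with DESeq2, and for floxed against tet footprints the 3 became 4 without the filter. Without the replicate block, which pairs a line's or stage's own libraries, the 2 calls for Dox in tetO-Msi1 became 0 and the 2 for 4-OHT became 0, and the 9 for stage became 8. With libraries left out, the count ranged from 0 to 1 for Dox in tetO-Msi1, from 0 to 4 for Dox over the 3 lines, from 0 to 1 for 4-OHT, from 6 to 8 for stage, and from 3 to 7 and 2 to 4 for floxed against tet mRNA and footprints. Where 1 pair was left, it was assumed to vary like the other libraries. Egr1 between stages ranged from -1.42 to 0.034, the latter without tetO-Msi1. It also lost its call with DESeq2 (adjusted p = 0.445), without the block (0.0679) and with technical library 1 alone. Members not called changed sign in 6 of 327 values under other settings and in 48 of 206 when libraries were left out.

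Counts over all genes moved by over 1.5 times in these cases. Dox in tetO-Msi1 went from 430 to 102 (DESeq2), 0 (no block) and 8 to 1239 (libraries left out). Dox over 3 lines went from 54 to 437 (no filter), 0 (no block) and 24 to 510. 4-OHT mRNA went from 639 to 1254 (no filter), 0 (no block) and 0 to 158. Footprints with 4-OHT went from 116 to 179 (no filter), 2 (no block) and 56 to 58, and with Dox from 73 to 16 (RLE), 7 (DESeq2), 0 (no block) and 35 to 56. Footprints between line types went from 3829 to 2347 to 4319 with libraries left out. TE went from 0 to 49 (DESeq2) and 0 to 7 for 4-OHT, from 16 to 9 (RLE), 55 (no filter), 7 (DESeq2), 0 (no block) and 6 to 16 for Dox, and from 788 to 1486 (DESeq2) and 37 to 1553 between line types. The cause was not tested.

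Single pairs turned sign in the following cases. With the treated KH2 library as the control at E12.5, tetO-Msi1 gave 0.44 for Fos, 0.41 for Junb, 0.78 for Egr1, 0.19 for Egr2 and 0.25 for Ier2, and tetO-Msi2 gave -0.059 for Fos and -0.16 for Junb. With treated C1 as the control, C4 gave -0.24 for Egr2 and -0.035 for Dusp1. Centred on all genes, C1 footprints with 4-OHT gave 0.25 for Fos, 0.33 for Jun, 0.16 for Junb and 0.35 for Egr1, and C1 TE gave 0.39 for Fos, 0.55 for Fosl1, 0.32 for Jun, 0.40 for Junb, 0.14 for Egr1, 0.025 for Ier2 and 0.81 for Dusp1, where the median of all genes was itself lower. Centred likewise, Ier2 differed by -0.34 between stages in KH2. Depth limits the footprints: Fosb, Atf3 and, in tet lines, Fosl1 and Egr2 rested on fewer than 10 reads per library.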

Other observations

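The 2 technical libraries of untreated tetO-Msi1 at E13.5 differed over 13207 genes with a chi-square that was 1.67 times its degrees of freedom. The factor was 10.9 (13012 genes) between untreated KH2 and tetO-Msi1 of the same stage. Summed over the 10 members, mRNA stood at 574 to 1258 CPM in tet lines at E12.5, 360 to 446 at E13.5 and 1088 to 1528 in the floxed lines. Over the 13 RNA-Seq conditions, which share the RPKM shift between sets of libraries, Pearson's r of log2 levels was 0.975 between Egr1 and Ier2, 0.966 between Egr1 and Egr2, 0.949 between Fosl1 and Egr2, and -0.582 between Fos and Atf3.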
